A study of Phyllostachys violascens with 18 samples.

Results

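The genes described here are the 257 gene models that the deposited expression table of a bamboo places, by its KEGG annotation, in the pathway of ribosome biogenesis in eukaryotes. They were picked by that annotation alone, out of 42520 gene models, and no expression value took part in the choice. They carry 58 KEGG entries, each entry standing for 1 kind of protein, and they lie on 32 scaffolds of the assembly behind the table, with 31 on scaffold 21 and 26 on scaffold 15. Of the 257 genes, 234 had enough counts to be tested, among 37595 tested genes of the whole table, and 23 had too few, with mean levels of at most 0.251 FPKM (fragments scaled by transcript length and library total) in any group. KEGG also lists 84 of the 257 under a second pathway. The descriptions of 29 genes, 26 of them tested, name a protein other than the KEGG entry, and the role of these genes is uncertain.

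Ribosome biogenesis is the making of ribosomal subunits, which begins in the nucleolus on a long precursor RNA transcribed by RNA polymerase I. Small nucleolar ribonucleoproteins (snoRNPs) guide the chemical modification of this RNA, a large early particle called the 90S pre-ribosome folds and cuts it, and later factors finish the small (40S) and large (60S) subunits and carry them to the cytoplasm. In plants the genes of this pathway are known for high activity in dividing and growing tissue, such as shoot tips and leaf primordia.

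RNA was sequenced from leaves of the variant ‘Flavistriatus’ of Phyllostachys violascens, a bamboo studied here for its leaf colour, and from leaves of the species itself, called the typical plant below. The 6 groups were variant young, typical young, variant immature, typical immature, variant mature and typical mature leaves, with 3 libraries in each. All plants grew in a greenhouse, and no treatment, transgene or leaf age in days is named. The tissue is taken from the sample titles, which speak of leaves, although a separate tissue field says culms. Nothing in the labels says that the 3 libraries of a group are from different plants, so the p-values measure the spread between these libraries, which may be technical. Starting from picogram amounts of RNA, cDNA of full length was made with a primer on the poly(A) tail, amplified by PCR and cut by an enzyme. No strand mark and no molecular identifier is described, so overlapping genes on opposite strands cannot be told apart, and PCR copies count as reads.

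Total counts lay between 30268130 and 58374889 per library. Levels are the deposited FPKM, which correct for gene length and library total only. Fold changes are log2 values from edgeR's quasi-likelihood test on the counts, scaled with the trimmed mean of M values (TMM), with ± for the standard error. Calls rest on an adjusted p (Benjamini-Hochberg, over all 37595 tested genes) below 0.05. The TMM factor ranged from 0.75 to 0.80 over the typical immature libraries, from 0.80 to 0.86 over the typical mature ones and from 1.03 to 1.18 over the rest, so the ratio of FPKM of variant over typical leaves lies above the tested fold in immature and mature leaves. Variant mature 3, typical mature 1 and variant young 1 stood apart from the other libraries of their groups, with a chi-square per degree of freedom of 198 and 262, 135 and 176, and 49.7 and 102 in their pairs. The 3 variant immature libraries were nearly alike at 11.3 to 12.2, and so were typical young 2 and 3 at 9.24 and typical mature 2 and 3 at 12.0, although none of these pairs fell within sampling noise.

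The 257 genes together took the largest part of the transcript counts in young leaves, and in immature leaves the variant held more than the typical plant. In young leaves they made up 0.710%, 0.970% and 0.872% of all counts in the variant, against 0.921%, 0.977% and 0.985% in the typical plant. In immature leaves the shares were 0.691%, 0.702% and 0.700% in the variant, against 0.318%, 0.309% and 0.331% in the typical plant. In mature leaves they were 0.565%, 0.523% and 0.682% in the variant, against 0.366%, 0.423% and 0.427% in the typical plant. The plant types overlapped in young leaves and were separate in immature and mature leaves, where each variant library lay above each typical one. These are shares of library totals without TMM scaling. The TMM factors were lower in typical than in variant immature and mature leaves, so both gaps would be smaller on the tested scale. In RNA from whole tissue, fewer cells of a type and less RNA per cell cannot be told apart, and this holds for each level below.

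**Figure D1:**
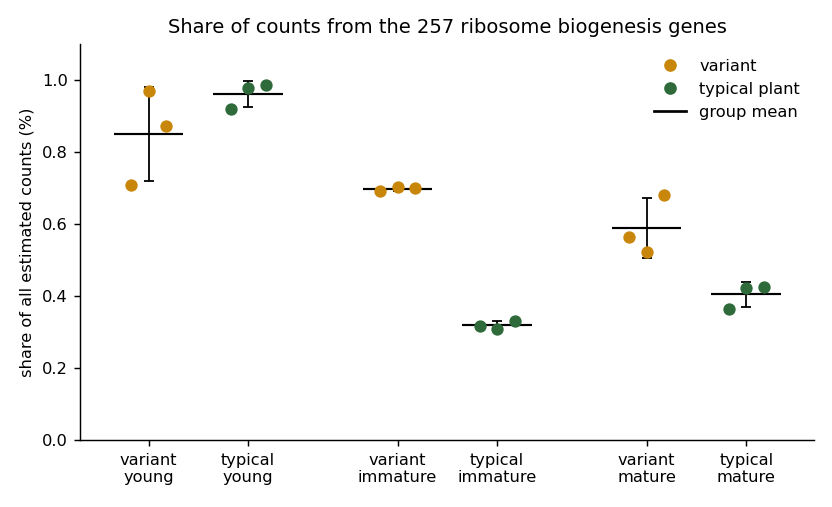
Share of all estimated counts (%, vertical axis) that came from the 257 ribosome biogenesis genes, with a point for each library, a line for the mean and a bar for the SD of each group of 3. The 3 variant immature libraries sit at 0.691% to 0.702%, above the 3 typical immature libraries at 0.309% to 0.331%, while the young groups overlap. The shares are of library totals and are not TMM-scaled.

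Between the plant types, immature leaves showed the widest difference. There, 128 of the 234 tested genes were higher and 25 lower in the variant, against a background of 21.7% of all tested genes called higher and 23.1% called lower. The 128 and 25 genes were 54.7% and 10.7% of the 234, and the median log2 fold change was 0.75, beside -0.01 over all tested genes. In mature leaves 53 genes were higher and 9 lower in the variant, or 22.6% and 3.85%, against a background of 14.9% higher and 9.65% lower. The mature median was 0.33, beside 0.09 over all tested genes. In young leaves none of the 234 was called in edgeR, against 0.149% of all tested genes higher and 0.0213% lower. Of the 234, 16 had an unadjusted p under 0.05 in young leaves (edgeR), a share similar to that of all tested genes (2652 of 37595). DESeq2 called 0 genes of the pathway. The young median was -0.19, beside -0.0002 over all tested genes.

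How far these counts held differed between the stages. With 1 library left out at a time, 111 to 117 genes were called higher and 21 to 26 lower in variant immature leaves. In mature leaves the same ranges were 37 to 54 and 6 to 9. The fewest higher genes, 37 of 235, came without variant mature 3, where 5429 of all 38345 tested genes were higher. Without variant mature 3 the mature median was 0.16. An alternative chosen after seeing the data left out variant mature 3 and typical mature 1 together. There, 31 of 235 tested genes were higher and 6 lower, with a median of 0.12. Of all 38269 genes tested in that fit, 5373 were higher and 3383 lower, with a median of 0.06. The higher genes thus took no larger share of the pathway than of all tested genes. With library totals alone in place of TMM, the median of all tested genes itself moved to 0.43 in both comparisons, and 158 genes were higher and 14 lower in immature and 113 and 5 in mature leaves. With the nearly alike libraries summed to 1 sample each, 82 were higher and 8 lower in immature leaves and 22 and 4 in mature leaves. With the 6 mature libraries fitted alone, 11 of 214 were higher and 2 lower, with a median of 0.31. In that fit 1454 of all 31770 tested genes were higher and 1187 lower, with a median of 0.05. The share of higher genes was near that background.

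**Figure D2:**
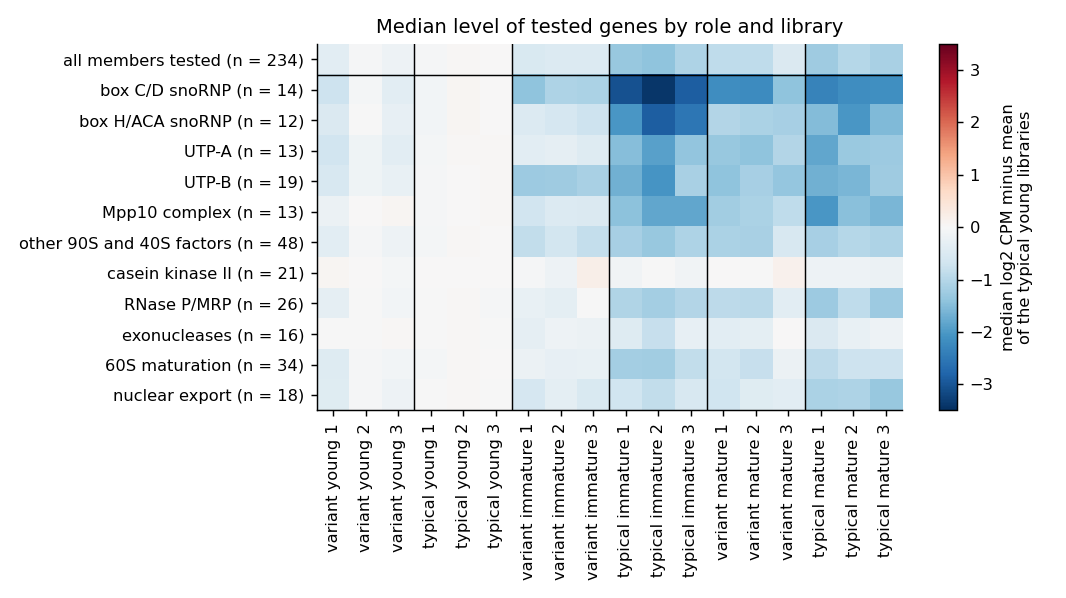
Median level of the tested genes of each role (rows) in each of the 18 libraries (columns), as log2 CPM (TMM-scaled) minus the mean of the 3 typical young libraries (colour scale). The box C/D row is darkest in the 3 typical immature libraries. In the box H/ACA row typical immature 2 and 3 are darkest, and typical mature 2 (-2.05) is close to typical immature 1 (-2.03). In both rows the variant immature libraries stay closer to the young level.

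Box C/D snoRNPs place methyl groups on ribosomal RNA, and their genes showed the largest median difference of the 11 roles in immature leaves. Of 14 tested genes, 12 were higher (85.7%) and 0 lower in the variant, with a median of 2.10. The background was 21.7% of all tested genes higher and 23.1% lower. Fibrillarin is the methyltransferase of these particles, and PH02Gene10917 (scaffold 3, bases 102311683 to 102314806, plus strand) was its most abundant gene. It had 116, 189.8 and 159.8 FPKM in variant young leaves, against 181, 199 and 193 FPKM in typical young leaves. In immature leaves it had 109.5, 105 and 107 FPKM in the variant, against 14.8, 11.1 and 12.8 FPKM in the typical plant. Mature leaves had 39.7, 32.6 and 62.7 FPKM in the variant, against 7.17, 13.4 and 17.5 FPKM in the typical plant. The young libraries of the plant types overlapped, and at both later stages each variant library lay above each typical one. In edgeR the difference was 2.60 ± 0.27 in immature leaves (adjusted p = 4.92e-06) and 1.51 ± 0.26 in mature leaves (adjusted p = 0.00102). Without variant mature 3 and typical mature 1 the mature difference was 0.97, still called.

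SNU13 binds a bend in the guide RNA of box C/D particles. Its gene PH02Gene05009 (scaffold 21, bases 92250346 to 92251999, minus strand) had 104, 96.99 and 97.05 FPKM in variant immature leaves, against 19.9, 24.7 and 21.9 FPKM in typical immature leaves. The groups were separate, with a difference of 1.71 ± 0.15 (edgeR, adjusted p = 1.14e-06), and in mature leaves it was 0.79 ± 0.15 (edgeR, adjusted p = 0.00166). A second SNU13 gene, PH02Gene19140, differed less, by 0.83 ± 0.15 in immature leaves (edgeR, adjusted p = 0.000333). NOP56 and NOP58 form the frame of the particle. NOP58 gene PH02Gene21798 had 8.82, 6.901 and 8.66 FPKM in variant immature leaves, against 0.502, 0.0715 and 0.289 FPKM in typical immature leaves, a difference of 4.33 ± 0.65 (edgeR, adjusted p = 0.000103). Its typical immature values were below those of every other group except typical mature, where 0.0705, 0.597 and 0.807 FPKM were listed. NOP56 gene PH02Gene13363, chosen after its values were seen, had 19.9, 17.5 and 23.8 FPKM in variant immature leaves, against 1.61, 1.49 and 1.56 FPKM in typical immature leaves (3.26 ± 0.38, edgeR, adjusted p = 1.12e-05).

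Box H/ACA snoRNPs turn uridines of ribosomal RNA into pseudouridine. Of 12 tested genes, 9 were higher (75.0%) and 0 lower in variant immature leaves, beside a background of 21.7% and 23.1%. The median was 1.74. GAR1, a core protein of these particles, was annotated at a single gene, PH02Gene11298 (scaffold 1, bases 21232509 to 21235537, minus strand). It had 7.48, 15.5 and 13.6 FPKM in variant young leaves, against 14.4, 16.8 and 15.2 FPKM in typical young leaves. In immature leaves it had 11.7, 9.57 and 10.3 FPKM in the variant, against 0.301, 0.281 and 0.0599 FPKM in the typical plant. In mature leaves it had 1.47, 1.45 and 1.95 FPKM in the variant, against 0.172, 0.269 and 0.634 FPKM in the typical plant. The variant immature libraries lay within the range of the variant young ones and the mature ones below it, while both later stages of the typical plant lay below its young range. The immature difference was 5.14 ± 0.50 (edgeR, adjusted p = 2.89e-06). The mature one was 1.82 ± 0.45 (edgeR, adjusted p = 0.0092), and it was no longer called without variant mature 3 and typical mature 1 together (adjusted p = 0.054), with nearly alike libraries summed (0.0508) or with the mature libraries fitted alone (0.0936).

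The other H/ACA genes named here differed less than GAR1. NHP2 gene PH02Gene21905 had 71.7, 68.5 and 77.1 FPKM in variant immature leaves, against 17.7, 13.3 and 18.1 FPKM in typical immature leaves, and differed by 1.69 ± 0.21 (edgeR, adjusted p = 1.66e-05). NOP10, a small core protein, had 4 tested genes. PH02Gene18683 had 112, 123 and 108 FPKM in variant immature leaves, against 45.6, 57.8 and 46.3 FPKM in typical immature leaves (0.74 ± 0.14, edgeR, adjusted p = 0.000548). In the variant this gene was also higher in immature than in young leaves, by 0.54 ± 0.14 (edgeR, adjusted p = 0.00367, or 0.0625 with nearly alike libraries summed). PH02Gene24503, another NOP10 gene, gave -0.14 ± 0.14 in immature leaves (edgeR, adjusted p = 0.42) and was higher in the variant in mature leaves, with 38.4, 39.7 and 37.9 FPKM, against 15.6, 22.5 and 18.1 FPKM in the typical plant (0.73 ± 0.14, edgeR, adjusted p = 0.00194, or 0.0604 with the mature libraries fitted alone). Dyskerin is the pseudouridine synthase itself. Its 4 genes summed to a mean of 17.6 FPKM in variant immature leaves and 1.98 FPKM in typical immature leaves, and PH02Gene07724, chosen after its values were seen, differed by 2.66 ± 0.40 (edgeR, adjusted p = 0.0001).

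**Figure D3:**
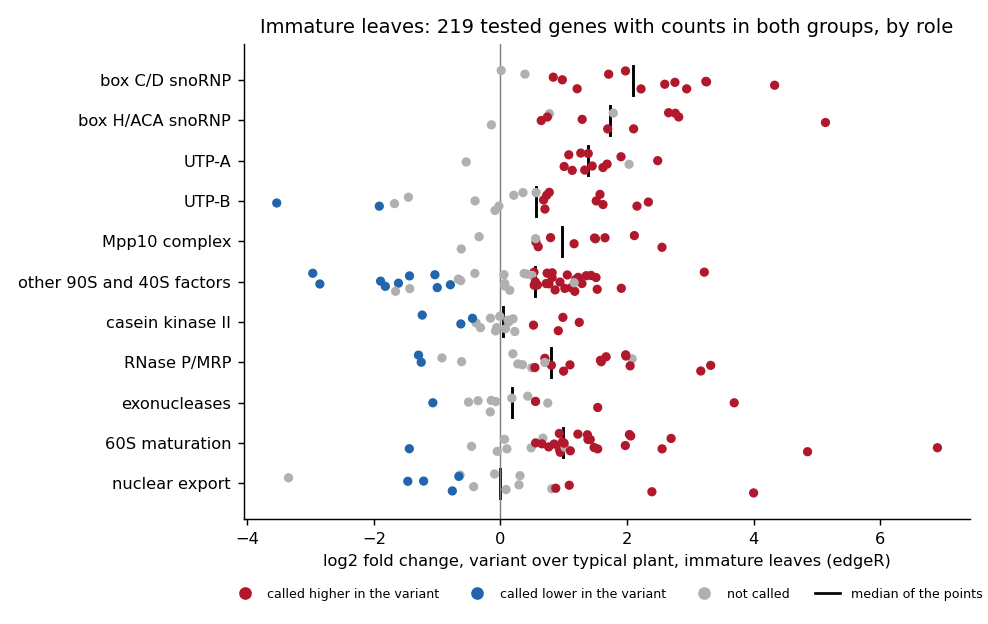
Log2 fold change of variant over typical immature leaves (horizontal axis, edgeR) of the 219 tested genes with counts in both groups, in a row for each role, coloured by the call, with a line at the median of the points. Box C/D, box H/ACA and UTP-A genes lie to the right of 0 with few exceptions, while casein kinase II and nuclear export genes lie on both sides.

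The UTP-A complex is the first to bind the growing precursor RNA. Of its 13 tested genes, 11 were higher (84.6%) and 0 lower in variant immature leaves, beside a background of 21.7% and 23.1%. The median was 1.39. UTP4 gene PH02Gene12544 (scaffold 21, bases 17864997 to 17870473, minus strand) had 15.1, 21.6 and 20.7 FPKM in variant young leaves, against 21.1, 23.6 and 22.3 FPKM in typical young leaves. In immature leaves it had 31.2, 35.5 and 31.8 FPKM in the variant, against 5.84, 5.42 and 7.89 FPKM in the typical plant. The variant libraries therefore exceeded their own young values, whereas the typical ones fell below theirs. The immature difference was 1.91 ± 0.20 (edgeR, adjusted p = 5.53e-06), and the change of immature over young leaves was 0.89 ± 0.20 in the variant (adjusted p = 0.00135) and -1.29 ± 0.20 in the typical plant (adjusted p = 4.96e-05). The second UTP4 gene PH02Gene27243 and UTP5 gene PH02Gene00016 differed between the plant types in immature leaves by 1.08 ± 0.22 and 1.45 ± 0.24 (edgeR, adjusted p = 0.00108 and 0.000205). In mature leaves 3 of 13 UTP-A genes were higher (23.1%) and 0 lower in the variant, beside a background of 14.9% and 9.65%. The mature median was 0.41, beside 0.09 over all tested genes.

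The UTP-B complex joins the particle next, and its genes were less uniform. Of 19 tested genes, 9 were higher (47.4%) and 2 lower (10.5%) in variant immature leaves, with a median of 0.56. The background was 21.7% and 23.1%. UTP12, annotated at 1 gene, PH02Gene11000, had 15.5, 14.8 and 15.1 FPKM in variant immature leaves, against 3.07, 3.52 and 4.197 FPKM in typical immature leaves (1.62 ± 0.19, edgeR, adjusted p = 1.25e-05). UTP13 gene PH02Gene46302 gave 0.36 ± 0.21 and did not pass the test (edgeR, adjusted p = 0.171). The lower genes were PH02Gene10987 and PH02Gene41385. PH02Gene10987, under the PWP2 entry, is described as the transcriptional corepressor LEUNIG_HOMOLOG, which is no ribosome factor, and had 4.02, 4.25 and 3.96 FPKM in variant immature leaves, against 12.04, 7.82 and 13.8 FPKM in typical immature leaves (-1.92 ± 0.22, edgeR, adjusted p = 1.01e-05). UTP6 gene PH02Gene41385 had 0.907, 1.03 and 0.966 FPKM in variant immature leaves, against 6.18, 8.42 and 10.3 FPKM in typical immature leaves (-3.54 ± 0.57, edgeR, adjusted p = 0.000181). The mean levels of all 3 UTP6 genes summed to 10.2 FPKM in variant and 11.4 FPKM in typical immature leaves. Without TMM scaling these sums differ less than they would on the tested scale.

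The Mpp10 complex, made of MPP10, IMP3 and IMP4, ties the U3 guide RNA to the particle. Of 13 tested genes, 9 were higher (69.2%, beside a background of 21.7%) and 0 lower in variant immature leaves, with a median of 0.79. IMP4 gene PH02Gene22719 (scaffold 15, bases 2383714 to 2388318, minus strand) had 35.3, 40.02 and 34.5 FPKM in variant immature leaves, against 7.44, 7.16 and 10.8 FPKM in typical immature leaves. In mature leaves it had 23.2, 18.9 and 37.4 FPKM in the variant, against 5.55, 10.3 and 10.1 FPKM in the typical plant. The groups were separate at both stages, with differences of 1.65 ± 0.25 in immature leaves (edgeR, adjusted p = 0.0001) and 1.30 ± 0.25 in mature leaves (edgeR, adjusted p = 0.00184). The mature difference was 0.79 without variant mature 3 and typical mature 1, and it was not called with the mature libraries fitted alone (adjusted p = 0.0522). IMP3 gene PH02Gene24285 had 34.7, 34.5 and 58.2 FPKM in variant mature leaves, against 14.3, 21.1 and 20.8 FPKM in typical mature leaves (0.86 ± 0.18, edgeR, adjusted p = 0.00338), which was 0.47 without variant mature 3 and typical mature 1 and not called with the mature libraries fitted alone (adjusted p = 0.0784). Its immature difference was 0.56 ± 0.18 (edgeR, adjusted p = 0.0187) and was not called when typical immature 2 or 3 or variant immature 1 or 2 was left out (adjusted p = 0.0501, 0.0754, 0.05 and 0.0631). PH02Gene38543, a second IMP4 gene, gave 0.79 ± 0.26 (edgeR, adjusted p = 0.0225), not called without typical immature 1, typical immature 3 or variant immature 2 (adjusted p = 0.0794, 0.0944 and 0.0812).

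The remaining factors of the 90S particle and the small subunit formed the largest class. In variant immature leaves 25 of 48 tested genes were higher and 10 lower, with a median of 0.54. The 52.1% higher lay above the background of 21.7%, while the 20.8% lower was near that of 23.1%. RCL1, a cyclase-like protein of the early particle, was most abundant at PH02Gene37841 (scaffold 15, bases 99634304 to 99637273, minus strand). It had 53.8, 54.5 and 55.5 FPKM in variant immature leaves, against 22.6, 22.9 and 20.3 FPKM in typical immature leaves. Mature leaves had 27.5, 31.7 and 44.1 FPKM in the variant, against 9.27, 13.4 and 13.3 FPKM in the typical plant. The differences were 0.86 ± 0.15 in immature leaves (edgeR, adjusted p = 0.000266) and 1.21 ± 0.15 in mature leaves (edgeR, adjusted p = 9.54e-05), with no overlap of the groups at either stage.

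NOB1, the nuclease that makes the final cut of the small subunit RNA, had a gene that ran the other way. PH02Gene27582 (scaffold 16, bases 120840110 to 120844283, plus strand) had 1.99, 4.09 and 3.76 FPKM in variant young leaves, against 3.93, 4.37 and 3.99 FPKM in typical young leaves. In immature leaves it had 4.76, 5.04 and 4.62 FPKM in the variant, against 18.6, 21.9 and 41.5 FPKM in the typical plant. In mature leaves it had 15.7, 16.4 and 11.6 FPKM in the variant, against 31.02, 31.3 and 29.6 FPKM in the typical plant. The typical plant was already high in immature leaves, and the variant was high in mature leaves only and stayed below the typical plant. The difference was -2.97 ± 0.30 in immature leaves (edgeR, adjusted p = 3.98e-06) and -1.39 ± 0.28 in mature leaves (edgeR, adjusted p = 0.00296). The 4 NOB1 genes together had 48.4 FPKM in variant and 47.1 FPKM in typical immature leaves. These sums are not TMM-scaled, and their ratio of variant over typical would be lower on the tested scale. The description of PH02Gene27582 names no protein.

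Several genes of the NAT10 and UTP22 entries, which stand for the ribosomal RNA acetyltransferase and a subunit of the UTP-C complex, are described as other proteins. PH02Gene05897, under NAT10, is described as a potassium channel beta subunit and had 9.18, 10.2 and 8.82 FPKM in variant immature leaves, against 24.4, 20.9 and 10.96 FPKM in typical immature leaves (-1.44 ± 0.22, edgeR, adjusted p = 0.000103). PH02Gene26295, under NAT10 and described as protein tas, gave -0.66 ± 0.37 (edgeR, adjusted p = 0.154). Both plant types had more of it in immature than in young leaves, by 1.74 ± 0.38 in the variant and 2.85 ± 0.39 in the typical plant (edgeR, adjusted p = 0.0012 and 1.72e-05). PH02Gene46694, also under NAT10, was listed at 0 in all 6 young libraries and had 0.875, 0.847 and 0.211 FPKM in variant mature leaves, against 0.794, 1.24 and 2.22 FPKM in typical mature leaves. PH02Gene05954, under UTP22 and described as a phosphatidylinositol kinase, had 0, 0.144 and 0.134 FPKM in variant immature leaves, against 3.78, 4.44 and 4.14 FPKM in variant young leaves. Leaving out the 26 tested genes with such descriptions was a step chosen after seeing the data. It left 119 of 208 genes higher (57.2%) and 20 lower (9.62%) in variant immature leaves, with a median of 0.80. The 26 themselves gave 9 higher (34.6%) and 5 lower (19.2%), with a median of -0.01. The background was 21.7% higher and 23.1% lower.

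Casein kinase II is a kinase with many substrates in the cell, and in yeast it belongs to the UTP-C complex. Its genes split evenly in immature leaves, where 4 of 21 were higher and 4 lower in the variant with a median of -0.01, shares of 19.0% each that lie below the background of 21.7% and 23.1%. The alpha subunit genes PH02Gene43224, PH02Gene31456 and PH02Gene31048, which share a description, were found almost only in young leaves. PH02Gene43224 (scaffold 15, bases 96434257 to 96436763, plus strand) had 46.6, 88.8 and 73.96 FPKM in variant young leaves, against 73.0, 89.99 and 94.8 FPKM in typical young leaves. In immature leaves it was listed at 0 in all 3 variant libraries, against 0.0707, 0.1095 and 0.0931 FPKM in the typical plant, and in mature leaves the variant had 0.821, 0.238 and 0.268 FPKM while the 3 typical libraries were listed at 0. PH02Gene31456 had 3.73, 17.3 and 14.9 FPKM in variant young leaves, against 13.5, 19.7 and 21.5 FPKM in typical young leaves, and at most 0.105 FPKM in any later library. PH02Gene31048 had 6.97, 4.25 and 5.02 FPKM in variant young leaves, against 6.403, 6.37 and 4.79 FPKM in typical young leaves, and 1 later library, variant immature 2, was above 0 with 0.210 FPKM. The more abundant alpha gene PH02Gene37316 had 51.2, 47.2 and 50.4 FPKM in variant immature leaves, against 39.8, 31.6 and 31.9 FPKM in typical immature leaves, which gave 0.08 ± 0.11 on the tested scale (edgeR, adjusted p = 0.592). The regulatory beta subunit gene PH02Gene43465 gave -0.06 ± 0.11 in immature leaves (edgeR, adjusted p = 0.712). In the variant it was higher in mature than in immature leaves, with 110.5, 96.6 and 85.7 FPKM in mature leaves, against 61.9, 68.04 and 66.2 FPKM in immature leaves (0.63 ± 0.11, edgeR, adjusted p = 0.00126, or 0.151 with nearly alike libraries summed).

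RNase P and RNase MRP are enzymes of RNA and protein that cut precursors of transfer and ribosomal RNA. Of 26 tested genes, 16 were higher (61.5%) and 2 lower (7.69%) in variant immature leaves, beside a background of 21.7% and 23.1%. The median was 1.05, or 0.90 with genes listed at 0 in a group set at a floor of 3 counts per library. RPP25, an RNA-binding subunit, had 9 genes, whose means summed to 225 FPKM in variant and 98.8 FPKM in typical immature leaves. PH02Gene46631 had 36.3, 39.6 and 42.3 FPKM in variant immature leaves, against 7.88, 11.2 and 9.51 FPKM in typical immature leaves (1.59 ± 0.20, edgeR, adjusted p = 1.83e-05). PH02Gene27246, described as an RNA helicase, had 36.99, 36.4 and 35.3 FPKM in variant immature leaves, against 18.1, 19.98 and 16.4 FPKM in typical immature leaves (0.54 ± 0.10, edgeR, adjusted p = 0.0006). PH02Gene17722 gave 0.20 ± 0.11 and did not pass (edgeR, adjusted p = 0.172). RPP30 gene PH02Gene34941 was lower in variant mature leaves, with 7.42, 7.72 and 6.62 FPKM, against 13.3, 16.7 and 14.7 FPKM in typical mature leaves (-1.35 ± 0.28, edgeR, adjusted p = 0.00295). A pair of RPP30 genes was low and listed at 0 in all 6 typical immature and mature libraries. Of these, PH02Gene03111 had 1.31, 0.431 and 0.319 FPKM in variant immature leaves, and PH02Gene48199 had 0.821, 0.283 and 0.176 FPKM there.

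The exonucleases trim the ends of ribosomal RNA precursors and degrade spacers, and 4 of 16 tested genes were higher and 1 lower in variant immature leaves with a median of 0.09, where the 25.0% higher is near the background of 21.7%. XRN2 gene PH02Gene15027, described as an exoribonuclease, gave -0.16 ± 0.20 in immature and 0.05 ± 0.20 in mature leaves (edgeR, adjusted p = 0.535 and 0.904). On scaffold 23, 4 genes stand under the XRN2 entry but are described as the subtilisin-like protease SBT3.9, and they rose with leaf age in both plant types. Of these, PH02Gene49432 had 3.703, 2.47 and 3.52 FPKM in young, 20.6, 17.4 and 17.3 FPKM in immature and 111, 84.7 and 55.0 FPKM in mature leaves of the variant. In the typical plant it had 3.997, 2.55 and 2.32 FPKM in young, 12.03, 18.96 and 11.6 FPKM in immature and 67.2, 86.1 and 83.9 FPKM in mature leaves. The plant types overlapped at each stage, and the difference in mature leaves was -0.23 ± 0.27 (edgeR, adjusted p = 0.578). PH02Gene37897, PH02Gene39300 and PH02Gene44461 changed by 2.81 ± 0.36, 2.02 ± 0.35 and 2.84 ± 0.28 in immature over young leaves of the variant and by 3.74 ± 0.38, 3.43 ± 0.37 and 2.64 ± 0.28 in the typical plant (edgeR, all called). REX1 gene PH02Gene37394 also rose with age in both, and had 7.45 ± 1.35 FPKM in young, 51.3 ± 2.83 FPKM in immature and 94.5 ± 21.3 FPKM in mature leaves of the variant (mean ± SD, n = 3). In the typical plant it had 6.12 ± 0.963 FPKM in young, 33.0 ± 9.09 FPKM in immature and 78.4 ± 11.3 FPKM in mature leaves.

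The factors of the large subunit were mostly higher in variant immature leaves. Of 34 tested genes, 25 were higher (73.5%) and 1 lower (2.94%), beside a background of 21.7% and 23.1%, with a median of 0.99. eIF6 binds the pre-60S subunit and keeps it from joining the small subunit too early. Its 6 genes summed to a mean of 216 FPKM in variant and 58.1 FPKM in typical immature leaves. PH02Gene16038 (scaffold 16, bases 94449494 to 94451732, plus strand) had 2.53, 1.84 and 3.54 FPKM in variant young leaves, against 1.40, 0.920 and 1.34 FPKM in typical young leaves. In immature leaves it had 51.3, 50.6 and 47.9 FPKM in the variant, against 0.732, 1.89 and 1.15 FPKM in the typical plant. In mature leaves it had 6.198, 6.88 and 11.2 FPKM in the variant, against 1.13, 0.877 and 1.36 FPKM in the typical plant. This gene stayed at 1.89 FPKM or less in each typical library and was highest in the variant immature libraries. Immature over young leaves, it rose by 4.35 ± 0.36 in the variant (edgeR, adjusted p = 2.28e-07), while the typical plant gave 0.55 ± 0.33 (edgeR, adjusted p = 0.165). The immature difference between plant types was 4.85 ± 0.37 (edgeR, adjusted p = 4.1e-07).

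A second eIF6 gene was also high in variant immature leaves, but its reads cannot be separated from a neighbour. PH02Gene38064 (scaffold 6, bases 4457867 to 4459905, minus strand) had 18.4, 17.6 and 15.9 FPKM in variant immature leaves, against 0.0544, 0.143 and 0.0862 FPKM in typical immature leaves (6.91 ± 0.80, edgeR, adjusted p = 1.2e-05). It overlaps PH02Gene38063, a further eIF6 model on the opposite strand, by 1006 bases. That model, chosen for this overlap, had 8.64, 9.30 and 9.69 FPKM in variant immature leaves, against 1.16, 0.835 and 1.11 FPKM in typical immature leaves (2.70 ± 0.22, edgeR, adjusted p = 7.37e-07). The most abundant eIF6 gene, PH02Gene35754, had 91.2, 90.9 and 92.4 FPKM in variant immature leaves, against 32.3, 37.4 and 30.2 FPKM in typical immature leaves (1.01 ± 0.15, edgeR, adjusted p = 0.000103). PH02Gene32491 differed by 0.66 ± 0.15 (edgeR, adjusted p = 0.00302, or 0.0622 with nearly alike libraries summed). Among the other large subunit factors, the GTPase NOG1 at PH02Gene21096 gave 0.93 ± 0.32 (edgeR, adjusted p = 0.0285), and this was not called without any 1 of typical immature 1 or 2 and variant immature 1, 2 or 3 (adjusted p = 0.0604, 0.11, 0.0511, 0.0542 and 0.0747). Midasin, a giant ATPase that strips assembly factors from the particle, was annotated at a single tested gene, PH02Gene18279, which was chosen after its values were seen. It had 2.47, 2.99 and 2.08 FPKM in variant immature leaves, against 0.516, 0.349 and 0.457 FPKM in typical immature leaves (2.06 ± 0.30, edgeR, adjusted p = 7.79e-05).

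Nuclear export factors showed no common direction in immature leaves, where 4 of 18 tested genes were higher and 5 lower in the variant with a median of -0.05, shares of 22.2% and 27.8% near the background of 21.7% and 23.1%. Ran is the small GTPase that drives transport through the nuclear pore, and PH02Gene04190 and PH02Gene22253 had the highest group means of the 257 genes. PH02Gene22253 had 222, 218 and 243 FPKM in variant immature leaves, against 146, 125 and 132 FPKM in typical immature leaves, which gave 0.31 ± 0.15 on the tested scale (edgeR, adjusted p = 0.0998). In mature leaves it had 203, 198 and 206 FPKM in the variant, against 112, 91.9 and 83.9 FPKM in the typical plant (0.74 ± 0.15, edgeR, adjusted p = 0.00256), which was not called with nearly alike libraries summed or with the mature libraries fitted alone (adjusted p = 0.0569 and 0.0773). The other abundant copy, PH02Gene04190, had 185, 189.9 and 186 FPKM in variant mature leaves, against 128, 93.7 and 80.98 FPKM in typical mature leaves, and gave 0.56 ± 0.18 (edgeR, adjusted p = 0.0322). That call was lost without typical mature 2, typical mature 3, variant mature 1 or variant mature 2 (adjusted p = 0.121, 0.135, 0.0627 and 0.0811). A less abundant Ran copy ran the other way. PH02Gene14216 had 19.5, 20.8 and 18.01 FPKM in variant immature leaves, against 37.3, 35.8 and 44.2 FPKM in typical immature leaves (-1.46 ± 0.24, edgeR, adjusted p = 0.00022), and in mature leaves the difference was -1.13 ± 0.24 (edgeR, adjusted p = 0.00373). Without typical mature 1 the mature difference was -0.72, without variant mature 3 and typical mature 1 it was -0.55, and with the mature libraries fitted alone it was not called (adjusted p = 0.087). NMD3, the adaptor that carries the large subunit to the exporter, had 4 genes, whose means summed to 48.6 FPKM in variant and 17.7 FPKM in typical immature leaves. In mature leaves the sums were 22.9 FPKM in the variant and 8.88 FPKM in the typical plant. The copy PH02Gene10548 had 17.5, 20.7 and 22.4 FPKM in variant immature leaves, against 7.299, 15.4 and 2.68 FPKM in typical immature leaves, and did not pass the test (0.81 ± 0.85, edgeR, adjusted p = 0.46). The other 3 copies, chosen after their values were seen, were called higher in variant immature leaves. PH02Gene46500 had 26.1 ± 0.687 FPKM in variant immature leaves, against 8.97 ± 0.883 FPKM in typical immature leaves (mean ± SD, n = 3 each), and differed by 1.09 ± 0.14 in immature and by 0.89 ± 0.14 in mature leaves (edgeR, adjusted p = 3.12e-05 and 0.000554). PH02Gene06812 and PH02Gene06813 are adjacent on the same strand and low. PH02Gene06812 had 0.2801, 0.656 and 0.4001 FPKM in variant immature leaves, against 0.0215, 0 and 0.0309 FPKM in typical immature leaves (edgeR, adjusted p = 0.00665), and PH02Gene06813 differed by 2.39 ± 0.82 (edgeR, adjusted p = 0.0273). With nearly alike libraries summed neither was called (adjusted p = 0.062 and 0.146), and PH02Gene06813 was not called without typical immature 1 or variant immature 3 (adjusted p = 0.093 and 0.0738).

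**Figure D4:**
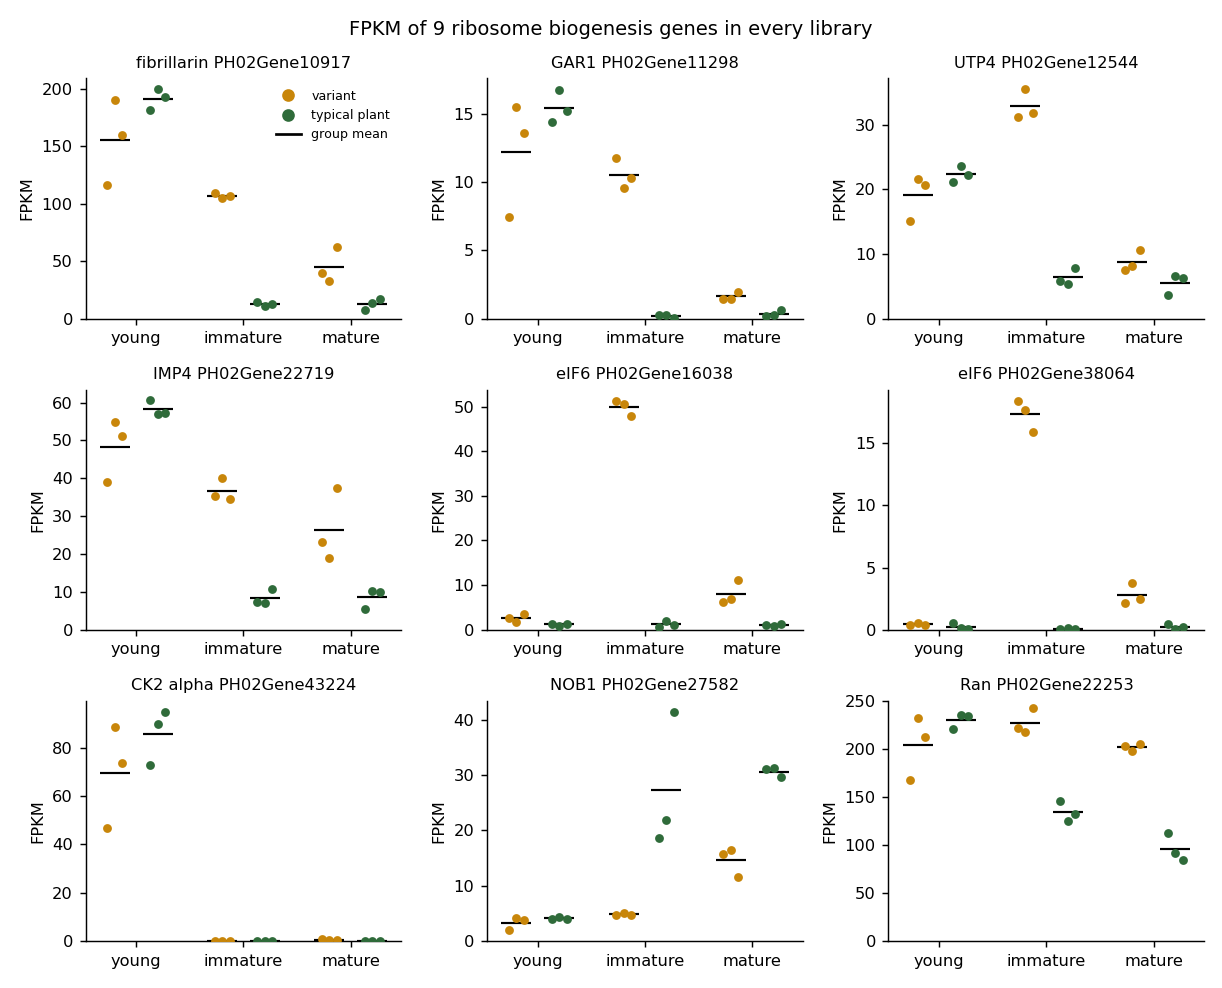
FPKM (vertical axes) of 9 ribosome biogenesis genes in each library by stage, with a line at each group mean, the variant to the left of the typical plant. Fibrillarin, GAR1, UTP4 and IMP4 are low in typical immature leaves and not in variant immature leaves, both eIF6 genes peak in variant immature leaves, the casein kinase II gene is near 0 after the young stage, and NOB1 is lower in the variant.

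In mature leaves the background was 14.9% of all tested genes higher and 9.65% lower in the variant, with a median of 0.09. The shares by role are read against it and come from the fit of all 18 libraries. Without variant mature 3 and typical mature 1 together, the pathway's share of higher genes was near the background of that fit. The same held with the mature libraries fitted alone. Box C/D genes had 5 of 14 higher (35.7%), 0 lower and a median of 0.69, and box H/ACA genes 5 of 12 higher (41.7%), 0 lower and a median of 0.66, both below their immature medians. The Mpp10 complex had 4 of 13 higher (30.8%), 0 lower and a median of 0.56. RNase P and RNase MRP had 9 of 26 higher (34.6%) and 1 lower (3.85%), with a median of 0.54. The nuclear export genes ran the other way between the stages, with 6 of 18 higher (33.3%) and 2 lower (11.1%) in mature leaves, and their mature median of 0.82, or 0.66 with genes listed at 0 in a group set at the floor of 3 counts, lay above their immature median of -0.05. The casein kinase II genes had 5 of 21 higher (23.8%) and 1 lower (4.76%) and a median of 0.21, also above the immature one. For UTP-B 4 of 19 were higher (21.1%) and 1 lower (5.26%), with a median of 0.26. The other small subunit factors, with 5 of 48 higher (10.4%) and 4 lower (8.33%), the large subunit factors, with 6 of 34 higher (17.6%) and 0 lower, and the exonucleases, with 1 of 16 higher (6.25%) and 0 lower, had shares of higher genes near or below the background. Fibrillarin PH02Gene10917, RCL1 PH02Gene37841 and NOB1 PH02Gene27582 passed the threshold in mature leaves under each alternative fitted.

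The stages give the second view of the same genes. In the variant 79 of the 234 tested genes fell and 35 rose in immature against young leaves, beside 28.6% and 27.0% of all tested genes, and the median change was -0.29, beside -0.06 over all tested genes. In the typical plant 156 fell and 20 rose, beside 30.4% and 29.2% of all tested genes, and the median was -1.24, beside -0.06. With 1 library left out at a time, 57 to 80 fell and 26 to 31 rose in the variant, and 139 to 148 fell and 17 to 21 rose in the typical plant. With nearly alike libraries summed, which leaves 1 variant immature sample, the median change in the variant was -0.24, beside -0.02 over all tested genes. By role, the variant had 7 of 14 box C/D genes lower with a median of -0.68, where the typical plant had 13 lower with a median of -3.12. For UTP-A the variant had 6 of 13 lower and 3 higher, where the typical plant had 11 lower with a median of -1.67. For the large subunit factors the variant had 7 of 34 lower and 10 higher with a median of -0.15, where the typical plant had 25 lower with a median of -1.09. UTP-B genes fell in both, with 13 of 19 lower in the variant and 15 of 19 in the typical plant, and medians of -0.89 in the variant and -1.43 in the typical plant.

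An interaction term tested whether these changes differed between the plant types. The change of immature over young leaves was more positive in the variant for 107 of the 234 genes and more negative for 12, beside 12.5% and 13.9% of all tested genes, with a median of 0.96, beside -0.09. With 1 library left out at a time these counts were 86 to 109 and 8 to 11, and with nearly alike libraries summed 47 and 2. Of the 156 genes that fell in the typical plant, 69 also fell in the variant, 76 were not called there and 11 rose there. Among those groups the interaction called 35, 55 and 11 more positive in the variant and 5, 0 and 0 more negative. The groups were sorted by the calls of the same changes that the interaction compares. The direction of the calls among the 76 and 11 genes is thus largely set by the sorting. The 12 genes that rose in both plant types were called more positive in 0 cases and more negative in 3. No gene that rose in the typical plant fell in the variant. Fibrillarin PH02Gene10917 changed by -0.42 ± 0.26 in the variant (edgeR, adjusted p = 0.172) and by -3.38 ± 0.28 in the typical plant (edgeR, adjusted p = 1.14e-07), with an interaction of 2.95 ± 0.37 (edgeR, adjusted p = 9.5e-05). For GAR1 PH02Gene11298 the interaction was 5.54 ± 0.63 (edgeR, adjusted p = 4.9e-05), and for eIF6 PH02Gene16038 it was 3.80 ± 0.47 (edgeR, adjusted p = 8.97e-05). By role, 12 of 14 box C/D, 8 of 12 box H/ACA, 11 of 13 UTP-A and 23 of 34 large subunit genes were more positive in the variant, against 2 of 21 casein kinase II and 2 of 18 nuclear export genes.

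**Figure D5:**
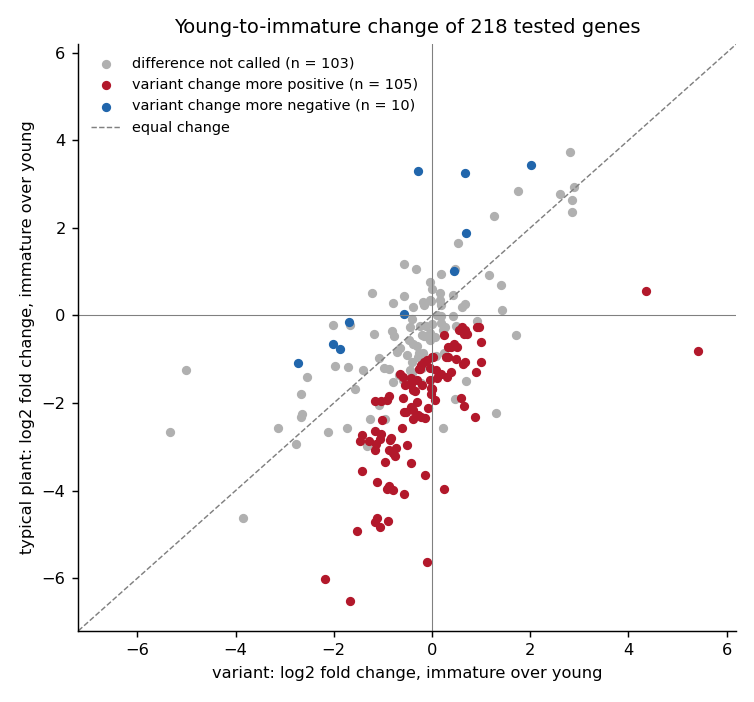
Log2 fold change of immature over young leaves in the variant (horizontal axis) and in the typical plant (vertical axis) for the 218 tested genes with counts in all 4 groups, coloured by the interaction test, with a dashed line where both changes are equal. The 105 points called more positive in the variant lie below the line, most of them with a negative change in the typical plant, and 10 points lie above it as more negative.

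Between immature and mature leaves the median change was negative in the variant and positive in the typical plant, and the difference between the plant types in this change was not tested. In the variant 25 genes rose and 46 fell in mature against immature leaves, beside 15.8% and 11.6% of all tested genes, with a median of -0.25. In the typical plant 40 rose and 17 fell, beside 13.2% and 16.2% of all tested genes, with a median of 0.22. Among the falling genes of the variant were GAR1 PH02Gene11298 (-2.65 ± 0.43), UTP4 PH02Gene12544 (-1.86 ± 0.20) and eIF6 PH02Gene16038 (-2.59 ± 0.33), all called in edgeR with adjusted p of 0.000596, 3.67e-05 and 0.00011. The count of falling genes in the variant rested on single libraries. It was 74 of 235 without variant mature 3, 20 without variant mature 1 and 25 without variant mature 2. Of all tested genes, 5125 of 38345, 3005 of 38356 and 4048 of 38347 fell in these fits. The share of falling genes was thus well above the background in the first fit and near it in the others. Without variant immature 1, 2 and 3 the count was 27, 25 and 26. Beside these stood 3067 of 38304, 3058 of 38306 and 3086 of 38332 of all tested genes. Without variant mature 3 and typical mature 1 together it was 90 of 235, beside 5980 of 38269 of all tested genes. With nearly alike libraries summed, which leaves 1 variant immature sample, the median change was -0.30, beside 0.0 over all tested genes. In the typical plant the count of rising genes lay between 29 and 47 with 1 library left out. It was 29 of 235 without typical immature 2 or typical mature 3, beside 4024 of 38380 and 4003 of 38372 of all tested genes. It was 47 of 235 without typical immature 3, beside 4778 of 38253. Without variant mature 3 and typical mature 1 together it was 58 of 235, beside 5762 of 38269.

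Bamboo genomes hold many copies of a gene, and copies of 1 entry may share reads, so that single copies are less certain than the entry. In immature leaves each of the 58 entries had a tested gene, and 57 had at least 1 copy higher in the variant while 14 had at least 1 copy lower. Of the 54 entries with 2 or more tested copies, 19 had every copy higher and 0 had every copy lower, and 13 had copies called both ways, among them NOB1, Ran, UTP6, PWP2, NAT10, XRN2 and the casein kinase II alpha subunit. In the variant 2 of 54 entries had every copy lower in immature than in young leaves, and in the typical plant 21 of 54. An entry with several copies has more chances of a called copy. These entry counts were not set beside those of other KEGG entries, so they show no excess by themselves. Summed over copies, NOP56 had a mean of 54.0 FPKM in variant and 10.96 FPKM in typical immature leaves, and NOP58 had 50.9 FPKM in variant and 8.85 FPKM in typical immature leaves. SNU13 summed to 156 FPKM in variant and 44.7 FPKM in typical immature leaves.

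Some of the genes lie next to each other on the scaffolds. There were 18 pairs of adjacent members, 14 of the same entry and 4 of different entries, and all 4 mixed pairs were head to head, with their starts facing each other. A gene for NUG2, a GTPase of the large subunit, lies beside a NOP56 gene in this way on each of scaffolds 15 and 21. On scaffold 21, NUG2 PH02Gene13364 and NOP56 PH02Gene13363 are 17564 bases apart. RRP7, a UTP-C subunit in yeast, and NHP2 form the other mixed pairs, with 133 bases between PH02Gene08131 and PH02Gene08132 on scaffold 17 and 7533 bases between PH02Gene16463 and PH02Gene16462 on scaffold 3. The genes of these pairs were picked by their position after their values were known. In immature leaves the pair of scaffold 17 gave 1.19 ± 0.32 for RRP7 (edgeR, adjusted p = 0.00672) and 0.77 ± 0.31 for NHP2 (edgeR, adjusted p = 0.0538). The pair of scaffold 21 gave 0.85 ± 0.16 for NUG2 (edgeR, adjusted p = 0.000619), beside the NOP56 value given above. The pair of scaffold 3 gave 1.02 ± 0.22 for RRP7 PH02Gene16463 (edgeR, adjusted p = 0.00193) and 0.64 ± 0.24 for NHP2 PH02Gene16462 (edgeR, adjusted p = 0.0426). The NHP2 call was lost without typical immature 1, variant immature 1 or variant immature 3 (adjusted p = 0.17, 0.0738 and 0.139). On scaffold 15, NUG2 PH02Gene10427 gave 0.76 ± 0.19 (edgeR, adjusted p = 0.00465), and its NOP56 neighbour had too few counts to be tested.

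Genes outside the KEGG pathway, found by their descriptions, give the surroundings of these values. In variant immature leaves the background was 21.7% higher and 23.1% lower. Of 47 tested genes for other ribosome assembly factors, 29 were higher (61.7%) and 1 lower (2.13%), with a median of 0.89. Of 8 tested RNA polymerase I genes 4 were higher and 0 lower, and of 17 tested exosome genes, which trim RNA ends, 11 were higher and 1 lower with a median of 1.42. Of 174 tested genes for proteins of the large ribosomal subunit 147 were higher (84.5%) and 0 lower, with a median of 0.96. Of 122 for the small subunit 100 were higher (82.0%) and 1 lower (0.82%), with a median of 0.94. In immature over young leaves of the variant 13 of 47, 2 of 8, 5 of 17, 51 of 174 and 54 of 122 genes of these lists were lower, against 32, 6, 16, 161 and 109 in the typical plant. The background was 28.6% lower in the variant and 30.4% in the typical plant, and the variant's shares were near or below it, at 25.0% to 29.4%, for each list but that of the small subunit proteins (44.3%).

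Of the marker lists of cell types, that of green leaf tissue stood furthest from the background of 21.7% higher and 23.1% lower in variant immature leaves. Of its 33 tested genes, such as those of chlorophyll-binding proteins, 1 was higher (3.03%) and 30 were lower (90.9%), and their summed level was 5522 to 5730 FPKM in variant and 30670 to 39760 FPKM in typical immature leaves. In mature leaves the sums were 2292 to 12190 FPKM in the variant and 18610 to 24550 FPKM in the typical plant, with 2292 in variant mature 3. Of the 37 genes on that list, 2 were at 0 in all variant and 3 in all typical immature libraries. Of 147 tested genes of dividing cells, such as cyclins and histones, 33 were higher (22.4%) and 28 lower (19.0%) in variant immature leaves. These shares were close to the background, and the median was 0.16. The sums were 1593 to 1648 FPKM in variant and 1301 to 1621 FPKM in typical immature leaves. FPKM sums are not TMM-scaled, and their ratio of variant over typical would be lower on the tested scale. Of the 165 genes on that list, 24 were at 0 in all variant and 26 in all typical immature libraries. In young leaves the sums of this list were 2789 to 6104 FPKM in the variant and 5156 to 6414 FPKM in the typical plant. From young to immature leaves 87 of 147 fell in the variant (59.2%) and 92 in the typical plant (62.6%). The background was 28.6% in the variant and 30.4% in the typical plant. Of 60 tested genes of secondary walls and stems 18 were higher and 18 lower in variant immature leaves (30.0% each), and in mature leaves 27 were higher (45.0%) and 1 lower (1.67%), against a background of 14.9% and 9.65%. Of 4 phloem genes 0 were higher and 2 lower in variant immature leaves. The part of these cell types, of leaf age within a stage and of library composition in the values of the ribosome biogenesis genes was not tested.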

How the data were processed

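RNA-seq libraries from 18 leaf samples were used, 3 for each of 6 groups of plant type and stage, grouped by their sample titles. The authors deposited estimated counts per gene, listed as whole numbers, and FPKM for each library, per the file headers. Per the submitters' processing notes, Salmon, cutadapt and FastQC were used, with no version named, and the genome build, like the annotation, is not given in the sources used here. Counts were rounded to whole numbers and tested with edgeR 4.0.16 (limma 3.58.1, R 4.3.3), with TMM factors, filterByExpr (10 counts, 15 in total), 6 group means, 12 residual degrees of freedom and Benjamini-Hochberg adjustment over 37595 genes at 0.05. Without molecular identifiers, PCR copies count as reads. There were 8 comparisons, including the interaction of plant type with the change of immature over young leaves. FPKM, as deposited, served for levels only. Tables were handled with pandas 2.3.3 under Python 3.11.15, and the test script was checked on simulated counts.

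The 257 genes were classed into 11 roles by KEGG entry. Genes were named where they were among the 3 with the highest mean FPKM of a role, the 5 called genes with the largest fold change in a comparison and direction whose groups did not overlap, or up to 5 called genes that moved against the majority. Genes outside this rule are marked in the text. The genes, roles and lists were chosen with earlier results of these data known. Lists of related genes and of markers of green leaf tissue, dividing cells, secondary walls and phloem were found by words in the descriptions. DESeq2 1.42.0, other scalings, no filter, fewer libraries and a replicate block were alternatives. A pair of libraries was compared by a chi-square over genes with 40 or more counts summed.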

Additional observations from a re-analysis of the deposited data

Results flagged for a closer look

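The change of immature over young leaves differed between the variant and the typical plant by the interaction test in edgeR. It was more positive in the variant for 107 of the 234 tested ribosome biogenesis genes and more negative for 12. Of all tested genes, 12.5% were more positive and 13.9% more negative. Among the named genes the largest such differences on the log2 scale were 6.22 for eIF6 gene PH02Gene38064, 5.54 for GAR1 gene PH02Gene11298 and 4.86 for NOP58 gene PH02Gene21798 in the positive direction. In the negative direction they were -3.57 for UTP6 gene PH02Gene41385, -2.59 for NOB1 gene PH02Gene27582 and -1.64 for PH02Gene10987, the gene under the PWP2 entry that is described as LEUNIG_HOMOLOG. For genes listed at 0 in a group no size is given. Their adjusted p in the same edgeR test was 0.00766 for XRN2 gene PH02Gene28573, 0.0224 for RPP30 gene PH02Gene03111, 0.0279 for UTP14 gene PH02Gene14973 and 0.00887 for casein kinase II alpha gene PH02Gene43224. PH02Gene28573 had 0.138, 0.0594 and 0.0901 FPKM in variant immature leaves and 0 in each of the 3 typical immature libraries, and PH02Gene14973 had 0 in each of the 3 variant immature libraries and 0.164, 0 and 0.0562 FPKM in typical immature leaves. The part of the green leaf marker levels, which differed between the same groups, in these differences was not tested.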

How the results depend on the processing

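For young leaves 0 genes were called under each alternative fitted. In immature leaves the variant had 14 lower genes with library totals alone, and 82 higher and 8 lower with nearly alike libraries summed. In mature leaves 113 were higher and 5 lower with library totals alone, 22 and 4 with nearly alike libraries summed, 11 and 2 with only the compared libraries, and 31 higher without variant mature 3 and typical mature 1 together. For immature over young leaves of the variant, summing left 16 rising and 26 falling. For mature over immature leaves it left 3 and 3 in the variant and 20 and 8 in the typical plant. Falling genes of that comparison in the variant numbered 28 with only the compared libraries, 90 without both mature libraries, and 20 to 74 with 1 library left out, while 18 rose in the typical plant with only the compared libraries. The interaction gave 7 more negative with library totals alone, 47 more positive and 2 more negative after summing, and 21 more negative with only the compared libraries. Fewer samples enter the summed and the compared-only fits, and a group summed to 1 sample is assumed to vary like the others. The calls over all tested genes changed between these fits too, so these counts show no excess over a background by themselves. With library totals alone the median of all tested genes moved to 0.43 in immature and in mature leaves, to -0.57 for immature over young leaves of the typical plant and to 0.34 for the interaction. There, CK2 beta gene PH02Gene43465, which rose by 0.36 in immature over young leaves of the typical plant, gave -0.15. Of 307 called tests of named genes, 164 stayed past the threshold in the same direction throughout.

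The replicate block gave 125 higher and 25 lower genes in immature and 52 and 9 in mature leaves, and 110 and 12 for the interaction. The labels do not say whether same-numbered libraries belong together. Deviations of same-numbered libraries correlated at -0.0985 to 0.155 over 45 pairs, beside -0.166 to 0.148 over 90 differently numbered pairs. These ranges show no sign of pairing but cannot exclude it. The replicate block lost 8 of the 307 called tests of named genes. Low genes limit the depth: 568 of 4626 counts of the 257 genes were 0.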
